A study of Mus musculus with 8 samples.

Results

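The 10 genes described here encode EGF family ligands and their receptors. The 7 ligands are Epgn (epigen), Ereg (epiregulin), Areg (amphiregulin), Hbegf (heparin-binding EGF-like growth factor), Tgfa (transforming growth factor alpha), Btc (betacellulin) and Nrg1 (neuregulin 1), and the 3 receptors are Egfr, Erbb2 and Erbb3. They were taken by symbol from the 33549 entries with a count, and all 10 had a row, with Areg without one in a single sample. They were followed by tomo-seq, which profiles thin slices taken in order through a frozen piece of tissue, each with its own barcode. All samples came from wild-type C57BL/6J mice, with 2 replicates each of dorsal tongue (the upper surface), hard palate, ventral tongue (the underside) and buccal mucosa (the inner cheek), and no treatment or transgene is named in the labels. Each of the 8 samples had 20 sections of 14 µm, which is 280 µm of tissue. The labels give neither age nor sex, nor whether each replicate was a different animal. The p-values therefore reflect no more than the scatter of these samples, which could be technical.

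EGF family ligands are made as membrane proteins, released by proteases at the cell surface, and bind receptor tyrosine kinases of the ErbB family. Epigen, amphiregulin and transforming growth factor alpha act through EGFR, while epiregulin, betacellulin and heparin-binding EGF-like growth factor bind both EGFR and ErbB4, and neuregulin 1 binds ErbB3 and ErbB4. ErbB2 has no known ligand of its own and serves as the preferred partner of the other receptors, and ErbB3 has little kinase activity and signals in pairs with them. In stratified epithelia this family is known for driving keratinocyte growth, migration and wound closure, and neuregulin 1 is also known for its action on Schwann cells and muscle.

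Epgn, Ereg, Areg and Btc are neighbours on mouse chromosome 5, with no other protein-coding gene between them in the GENCODE annotation of GRCm38. Their cluster spans 376 kilobases. Epgn lies at chr5:91027464-91035215, Ereg at chr5:91074622-91093646 and Areg at chr5:91139599-91148432, all on the plus strand, and Btc lies at chr5:91357261-91402994 on the minus strand. Tgfa is on chromosome 6, Nrg1 on 8, Erbb3 on 10 and Hbegf on 18. Egfr and Erbb2 are on chromosome 11. The promoters of 3 of the neighbours are shown because Epgn, the member that passed the test between sites, shares this cluster with Areg and Btc. Ereg, which lies between Epgn and Areg, had no promoter in the source used. The windows shown are the bases before the gene's start in RefSeq (GRCm38.p6), 5′ to 3′ on the gene's own strand, cut where the GENCODE gene begins. Capitals mark TATAAA or GGGCGG (the core of a GC box), searched on both strands.
Epgn, chr5:91027267-91027463, plus strand: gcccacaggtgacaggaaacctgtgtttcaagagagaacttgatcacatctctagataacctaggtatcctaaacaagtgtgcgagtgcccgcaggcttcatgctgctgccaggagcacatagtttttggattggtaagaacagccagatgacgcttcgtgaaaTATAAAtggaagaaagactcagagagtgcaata
Areg, chr5:91139349-91139598, plus strand: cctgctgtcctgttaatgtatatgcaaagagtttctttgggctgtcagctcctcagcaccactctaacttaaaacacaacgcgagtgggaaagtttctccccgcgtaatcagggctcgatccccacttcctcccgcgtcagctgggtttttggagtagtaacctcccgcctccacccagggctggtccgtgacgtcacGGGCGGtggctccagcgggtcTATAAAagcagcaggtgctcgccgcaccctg
Btc, chr5:91402995-91403244, minus strand: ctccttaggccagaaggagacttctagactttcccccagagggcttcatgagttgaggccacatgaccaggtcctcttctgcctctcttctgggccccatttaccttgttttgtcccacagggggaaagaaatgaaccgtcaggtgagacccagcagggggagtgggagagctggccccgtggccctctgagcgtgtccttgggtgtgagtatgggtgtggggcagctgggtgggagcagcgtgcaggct
TATAAA stood 33 to 28 bases before the GENCODE start of Epgn and 31 to 26 bases before that of Areg. GGGCGG stood 52 to 47 bases before the start of Areg. The Btc window held neither. Of 32851 RefSeq promoters, 12.4% held TATAAA and 32.7% GGGCGG in the 250 bases before the start. Neither TGANTCA (the AP-1 motif, 6.75% of promoters) nor TTGCNNAA (a C/EBP motif, 9.56%) was found in the windows of the 6 members in the table, which were Epgn, Areg, Btc, Tgfa, Egfr and Erbb2. A match is a run of letters in this window and says nothing of a factor bound there.

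Values are counts of unique molecular identifiers (UMIs), 1 per tagged 3′ end, given as CPM, a scaling to the total UMIs of the sample or section. Totals ran between 7830471 and 26376536 UMIs per sample. Buccal mucosa replicate 2 stood apart from the other samples. Its 12 differentiated keratinocyte markers summed to 182 CPM, against 17765 to 24694 CPM in the other 7 samples, while its 7 salivary gland markers summed to 3417 CPM, against at most 28.6 CPM elsewhere. Its 20 keratinocyte genes summed to 1533 CPM, against 14905 to 26996 CPM, and its 10 skeletal muscle markers to 33234 CPM. All 8 basal and all 12 differentiated keratinocyte markers were detected in each sample. The Spearman correlation across genes between replicates was 0.782 in buccal mucosa and 0.948 to 0.973 at the other sites. Skeletal muscle markers summed to only 176 to 437 CPM in hard palate. The tests of the sites are therefore given with and without buccal mucosa replicate 2. Fewer cells of a type and less RNA per cell cannot be told apart in such sections.

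Epgn had the widest range of site means among the 10 members and was the only one that passed the test of any difference between the 4 sites. It had 310.4 and 169 CPM in dorsal tongue, 35.1 and 47.3 CPM in hard palate, 30.7 and 30.3 CPM in ventral tongue, and 3.14 and 1.02 CPM in buccal mucosa. In CPM no site overlapped with another, and the lower dorsal tongue sample was still above the higher hard palate sample. The means were 239.9 ± 99.7 CPM in dorsal tongue, 41.2 ± 8.63 CPM in hard palate, 30.5 ± 0.281 CPM in ventral tongue and 2.08 ± 1.498 CPM in buccal mucosa (SD, n = 2 each). The adjusted p of any difference was 0.011 (edgeR's quasi-likelihood F-test over all genes, Benjamini-Hochberg), or 0.0014 without buccal mucosa replicate 2. That made 1 of 10 members against a background of 4.77% of the genes tested, and 2 of 10 members, Epgn and Ereg, against 12.3% without that replicate. Leaving out any single dorsal tongue, hard palate or ventral tongue sample put the adjusted p of Epgn at 0.051 to 0.079. Leaving out buccal mucosa replicate 1 instead, so that replicate 2 alone stood for that site, let Epgn, Ereg, Areg, Hbegf and Tgfa pass, in a fit where 28.1% of all genes passed.

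In pairs of sites, Epgn was higher in dorsal tongue than in buccal mucosa by 7.01 ± 0.65 on the log2 scale (SE, adjusted p = 0.034 by edgeR). The excess of dorsal tongue over hard palate was 2.94 ± 0.53 (adjusted p = 0.030), and that of hard palate over buccal mucosa was 4.07 ± 0.57 (adjusted p = 0.012). The percentages of all genes that passed in these comparisons, in either direction, were 0.231%, 4.48% and 6.2%. Without buccal mucosa replicate 2 the differences were 6.47 ± 0.56, 2.94 ± 0.34 and 3.53 ± 0.48 (adjusted p = 0.0084, 0.0025 and 0.0082). With the replicate number as a block, the adjusted p was 0.079 for dorsal tongue over buccal mucosa and 0.054 for dorsal tongue over hard palate. The difference between dorsal and ventral tongue was 3.07 ± 0.53 with an adjusted p of 0.31 in a comparison where 0.00537% of genes passed. Without buccal mucosa replicate 2 it was 3.07 ± 0.34 with an adjusted p of 0.021, where 0.517% passed. Hard palate and ventral tongue, neighbours in the order of levels, differed by 0.13 ± 0.49 (adjusted p = 0.91, 7.17% of genes passed), or by 0.12 ± 0.32 without that replicate (adjusted p = 0.82). Ventral tongue was above buccal mucosa by 3.94 ± 0.57, which did not pass (adjusted p = 0.27, 0% of genes passed; 1663 genes had an unadjusted p under 0.05, and DESeq2 called 322). Without that replicate the difference was 3.41 ± 0.48 (adjusted p = 0.13).

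Dorsal tongue stayed highest when Epgn was set against keratinocyte transcripts. Per 1000 UMIs of the 20 keratinocyte genes, Epgn had 15.05 and 7.52 UMIs in dorsal tongue and 1.30 and 1.97 UMIs in hard palate. Ventral tongue had 2.06 and 1.78 and buccal mucosa 0.148 and 0.667. On this measure hard palate and ventral tongue overlapped. Section by section, the lowest dorsal tongue value of Epgn was 109 CPM and the highest of any other sample 83.4 CPM, among sections with at least 30000 UMIs. The most Epgn UMIs in any section was 627, far under the number of possible UMIs, at which counts of a gene in a section saturate.

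**Figure D1:**
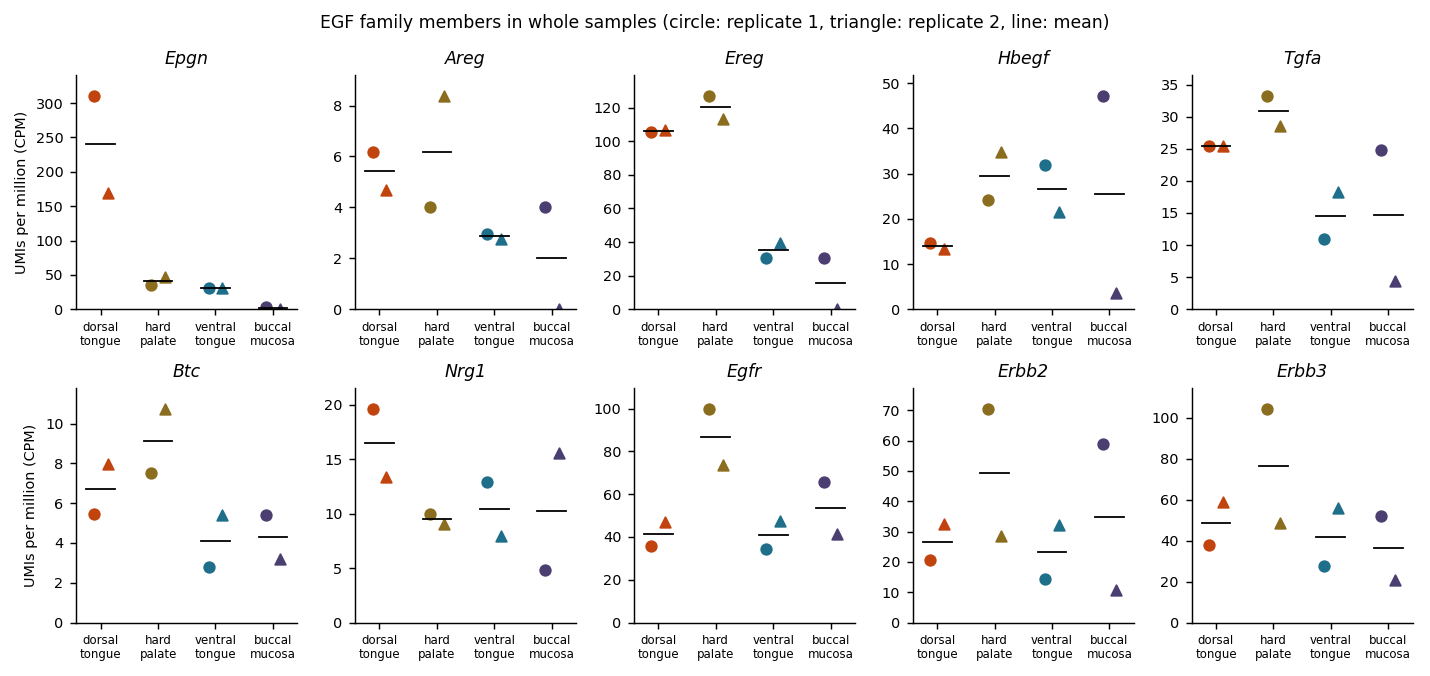
CPM of the 10 members in whole samples, one panel per gene with its own linear axis from 0; circles are replicate 1, triangles replicate 2 and lines the mean of the site. Epgn is at 310.4 and 169 CPM in dorsal tongue and at 3.14 and 1.02 CPM in buccal mucosa, while Erbb2 and Erbb3 overlap between all neighbouring sites.

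Ereg, the neighbour of Epgn, was high in hard palate as well as in dorsal tongue. It had 106 and 107 CPM in dorsal tongue, 127 and 113 CPM in hard palate, 30.4 and 39.7 CPM in ventral tongue, and 30.7 and 0.128 CPM in buccal mucosa. The last value is a single UMI. Dorsal tongue and hard palate lay above every sample of the other 2 sites, and ventral tongue overlapped with buccal mucosa. With all 8 samples Ereg passed neither the test of any difference (adjusted p = 0.46) nor that of any pair of sites. Without buccal mucosa replicate 2 it passed with an adjusted p of 0.0055 by edgeR. In that fit Ereg was higher in dorsal tongue than in ventral tongue by 1.70 ± 0.21 (adjusted p = 0.032) and than in buccal mucosa by 2.02 ± 0.28 (adjusted p = 0.031, 1.03% of genes passed). Hard palate exceeded ventral tongue by 1.47 ± 0.21 (adjusted p = 0.0051, 16.4% of genes passed) and buccal mucosa by 1.79 ± 0.28 (adjusted p = 0.014, 6.28% passed). Dorsal tongue was above hard palate by 0.23 ± 0.21 in this fit with its TMM factors, which did not pass, although hard palate was the higher in CPM. Ventral tongue and buccal mucosa differed by 0.32 ± 0.26 (adjusted p = 0.63).

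The other 5 ligands showed no site difference that passed, with or without buccal mucosa replicate 2. Areg had 6.17 and 4.67 CPM in dorsal tongue, 4.001 and 8.38 CPM in hard palate, 2.97 and 2.78 CPM in ventral tongue, and 4.03 and 0 CPM in buccal mucosa. The 0 allows up to 0.383 CPM, which is 3 UMIs, for counting error only. Btc, the most distant gene of the cluster, had 5.46 and 7.97 CPM in dorsal tongue, 7.50 and 10.7 CPM in hard palate, 2.78 and 5.41 CPM in ventral tongue, and 5.39 and 3.19 CPM in buccal mucosa. For both genes hard palate overlapped with dorsal tongue and ventral tongue with buccal mucosa, and both dorsal tongue samples were above every ventral tongue and buccal mucosa sample.

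Tgfa had 25.5 and 25.4 CPM in dorsal tongue, 33.3 and 28.5 CPM in hard palate, 10.9 and 18.3 CPM in ventral tongue, and 24.9 and 4.34 CPM in buccal mucosa. The order is that of CPM, without the TMM factors of the test, which were highest in hard palate. Hard palate was above dorsal tongue, and dorsal tongue above all samples of the remaining sites, but the adjusted p was 0.61, or 0.20 without buccal mucosa replicate 2. Hbegf was the ligand with dorsal tongue at the low end. It had 14.6 and 13.2 CPM in dorsal tongue, 24.1 and 34.8 CPM in hard palate, 31.9 and 21.5 CPM in ventral tongue, and 47.2 and 3.58 CPM in buccal mucosa. Apart from the low buccal mucosa sample, each sample of the other sites was above both dorsal tongue samples, with an adjusted p of 0.90, or 0.10 without that sample.

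Nrg1, the ligand of ErbB3 and ErbB4, had 19.6 and 13.4 CPM in dorsal tongue, 9.98 and 9.02 CPM in hard palate, 12.9 and 7.99 CPM in ventral tongue, and 4.86 and 15.6 CPM in buccal mucosa. It was the only member with more CPM in buccal mucosa replicate 2 than in replicate 1. Dorsal tongue was above hard palate and ventral tongue in each sample, and buccal mucosa spanned the range (adjusted p = 0.48, or 0.071 without buccal mucosa replicate 2).

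None of the 3 receptors passed the test, and their site means spanned a narrower range than those of Epgn and Ereg. Egfr had 36.0 and 46.8 CPM in dorsal tongue, 99.7 and 73.6 CPM in hard palate, 34.5 and 47.4 CPM in ventral tongue, and 65.6 and 41.5 CPM in buccal mucosa. These values again leave out the TMM factors, so their order need not be that of the test. Both hard palate samples were above all others, with an adjusted p of 0.40, or 0.23 without buccal mucosa replicate 2. Erbb2 had 20.7 and 32.5 CPM in dorsal tongue, 70.3 and 28.4 CPM in hard palate, 14.3 and 32.3 CPM in ventral tongue, and 58.9 and 10.7 CPM in buccal mucosa. Erbb3 had 38.1 and 58.9 CPM in dorsal tongue, 104 and 48.4 CPM in hard palate, 27.8 and 56.0 CPM in ventral tongue, and 52.0 and 20.6 CPM in buccal mucosa. For Erbb2 and Erbb3 the hard palate replicates lay farther apart than the means of any pair of sites (adjusted p = 0.88 and 0.69, or 0.46 and 0.78 without buccal mucosa replicate 2). Erbb2 overlaps the antisense gene Mien1, which averaged 127 CPM over the 8 samples, and no source used here states whether the counting used strand, so Erbb2 values are uncertain to that extent.

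The make-up of the pool of these 7 ligands followed these levels. Each molecule is tagged once at its 3′ end, so the shares are of tagged molecules, with no division by length. Epgn made up 63.7% (95% Wilson interval 62.8% to 64.6%) and 49.7% (48.6% to 50.9%) of the UMIs of the 7 ligands in dorsal tongue. Its share was 14.6% and 18.8% in hard palate, 25.01% and 24.0% in ventral tongue, and 2.61% and 3.67% in buccal mucosa. Ereg held 52.7% (51.2% to 54.2%) and 45.0% (43.8% to 46.2%) of the ligand UMIs in hard palate. Its share was 21.7% and 31.3% in dorsal tongue, 24.8% and 31.5% in ventral tongue, and 25.5% and 0.459% in buccal mucosa. Among these 7, Hbegf led in buccal mucosa replicate 1 with 39.3%, and Nrg1 in replicate 2 with 56.0%. The pool leaves out Egf, a ligand that is not a member. Egf had 5.51 to 50.6 CPM over the 2 buccal mucosa samples and at most 7.84 CPM at the other sites. The ligands summed to 487 and 341 CPM in dorsal tongue, 241 and 252 CPM in hard palate, 123 and 126 CPM in ventral tongue, and 120.2 and 27.8 CPM in buccal mucosa. Intervals cover counting error only.

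**Figure D2:**
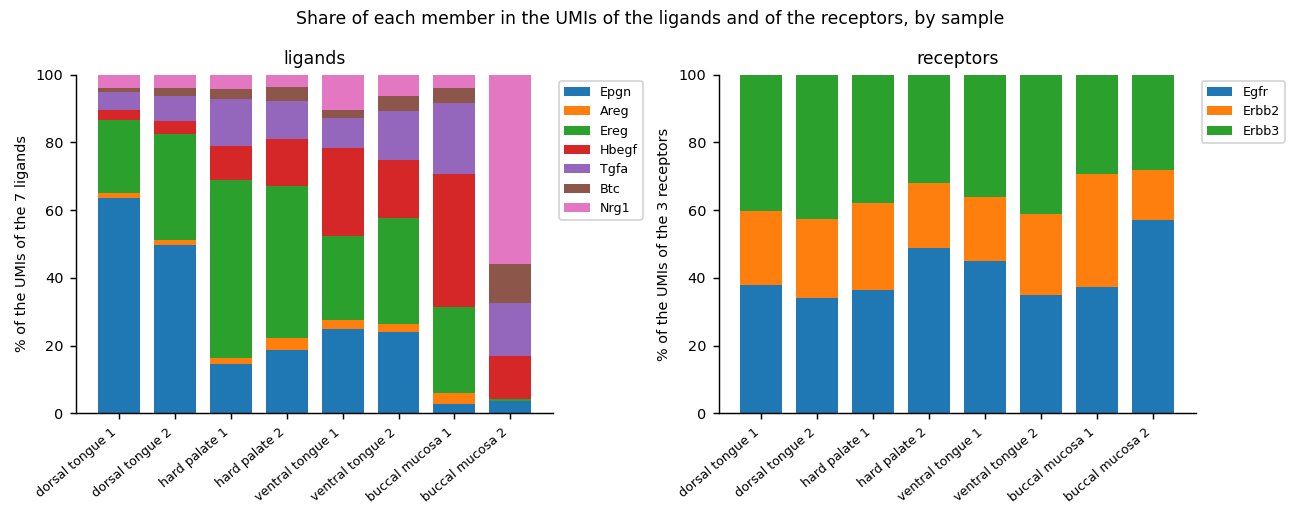
Share of each gene in the UMIs of the 7 ligands (left) and of the 3 receptors (right), in percent, for each of the 8 samples. Epgn takes 63.7% and 49.7% of the ligand UMIs in dorsal tongue, and Ereg 52.7% and 45.0% in hard palate; in buccal mucosa replicate 2 Nrg1 takes 56.0%.

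Through the depth of the tissue, 5 of the 10 members were higher in sections 1 to 10 than in sections 11 to 20, and none was lower. The 5 were the ligands Ereg, Tgfa and Btc and the receptors Erbb2 and Erbb3. This split uses the section number alone, and the labels do not say whether number 1 was the surface. Of all genes tested, 13.8% passed as higher and 18.5% as lower (edgeR, sample as a block). The median log2 difference was 0.41 over the 10 members and -0.02 over all genes. The list of 20 keratinocyte genes was higher in sections 1 to 10 in 8 of 8 samples, by a median of 0.40 on the log2 scale, and the 9 Schwann cell and nerve markers were lower in 8 of 8 samples, by a median of -0.64. The part of these markers in the members' differences was not tested.

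Ereg showed the largest difference of the members that passed. In sections 1 to 10 it had 0 to 163 CPM, with a median of 85.4 CPM, against 0.226 to 92.1 CPM, with a median of 57.1 CPM, in sections 11 to 20. In hard palate replicate 1 it had 163 CPM, against 81.9 CPM in the later sections, and in ventral tongue replicate 1 it had 45.7 CPM, against 20.6 CPM. Levels were higher in 7 of 8 samples, all but buccal mucosa replicate 2 with its single UMI, with a log2 difference of 0.79 ± 0.10 (SE, adjusted p = 0.00031). Ereg fell in steps through the blocks of 5 sections in hard palate replicate 1, with 193, 112, 90.9 and 73.0 CPM. In ventral tongue replicate 1 the same blocks had 57.6, 38.4, 23.0 and 17.6 CPM.

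Tgfa had 5.27 to 38.7 CPM in sections 1 to 10, with a median of 28.4 CPM, against 3.62 to 26.4 CPM, with a median of 20.5 CPM, in sections 11 to 20. It was higher in the earlier sections in 8 of 8 samples, with a log2 difference of 0.51 ± 0.08 (adjusted p = 0.00075). Btc had 3.52 to 12.4 CPM, with a median of 6.40 CPM, against 1.52 to 9.49 CPM, with a median of 4.62 CPM, and was also higher in 8 of 8 samples. Its log2 difference was 0.59 ± 0.14 (adjusted p = 0.0070). By sample, Btc differed least in dorsal tongue, at 0.22 and 0.18, and in buccal mucosa replicate 2, at 0.22. In that buccal mucosa sample the direction rests on 12 UMIs in sections 1 to 10 and 13 UMIs in sections 11 to 20.

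Among the receptors, Erbb3 had 24.6 to 104 CPM in sections 1 to 10, with a median of 54.9 CPM, against 17.4 to 104 CPM, with a median of 43.5 CPM, in sections 11 to 20. It was higher in 7 of 8 samples by 0.40 ± 0.07 on the log2 scale (adjusted p = 0.0013), and hard palate replicate 1 had about the same level in both. Erbb2 had 13.2 to 68.8 CPM, with a median of 32.4 CPM, against 8.83 to 72.2 CPM, with a median of 27.1 CPM. In 7 of 8 samples it was higher, with a log2 difference of 0.36 ± 0.08 (adjusted p = 0.0070). Egfr differed by 0.34 ± 0.12 and did not pass (adjusted p = 0.056). It was higher in the earlier sections in 6 of 8 samples, with hard palate as the exception, at 88.1 and 70.4 CPM in sections 1 to 10, against 114 and 76.0 CPM in sections 11 to 20. A fit without the hard palate samples leaves out those that ran the other way for Egfr. Hbegf was higher in the earlier sections in 4 of 8 samples. For Hbegf, dorsal tongue replicate 1 (-0.07) and buccal mucosa replicate 2 (-0.42) ran the same way as hard palate and stayed in that fit. The fit gave 0.51 for Egfr (adjusted p = 0.0094) and 0.57 for Hbegf (adjusted p = 0.024), where 17.5% of all genes were higher.

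Of the members that did not pass, Epgn differed by 0.42 ± 0.17 (adjusted p = 0.074), Areg by 0.58 ± 0.26 (adjusted p = 0.12) and Hbegf by 0.34 ± 0.16 (adjusted p = 0.12). Epgn passed at 0.54 without buccal mucosa replicate 1 (adjusted p = 0.023) and at 0.53 without ventral tongue replicate 2 (adjusted p = 0.042). Those fits leave out samples that ran the other way, at -0.73 and -0.16. Over all fits without a sample, the adjusted p of Epgn ran between 0.023 and 0.20. Nrg1 ran the other way, with 3.47 to 17.3 CPM in sections 1 to 10, against 7.26 to 22.03 CPM in sections 11 to 20. It was higher in the earlier sections in 2 of 8 samples and differed by -0.38 ± 0.16 (adjusted p = 0.091). Without dorsal tongue replicate 2 it passed as lower, at -0.50 (adjusted p = 0.040), but that sample ran against the others, at 0.25. Over all fits without a sample, the adjusted p of Nrg1 ran between 0.040 and 0.26.

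**Figure D3:**
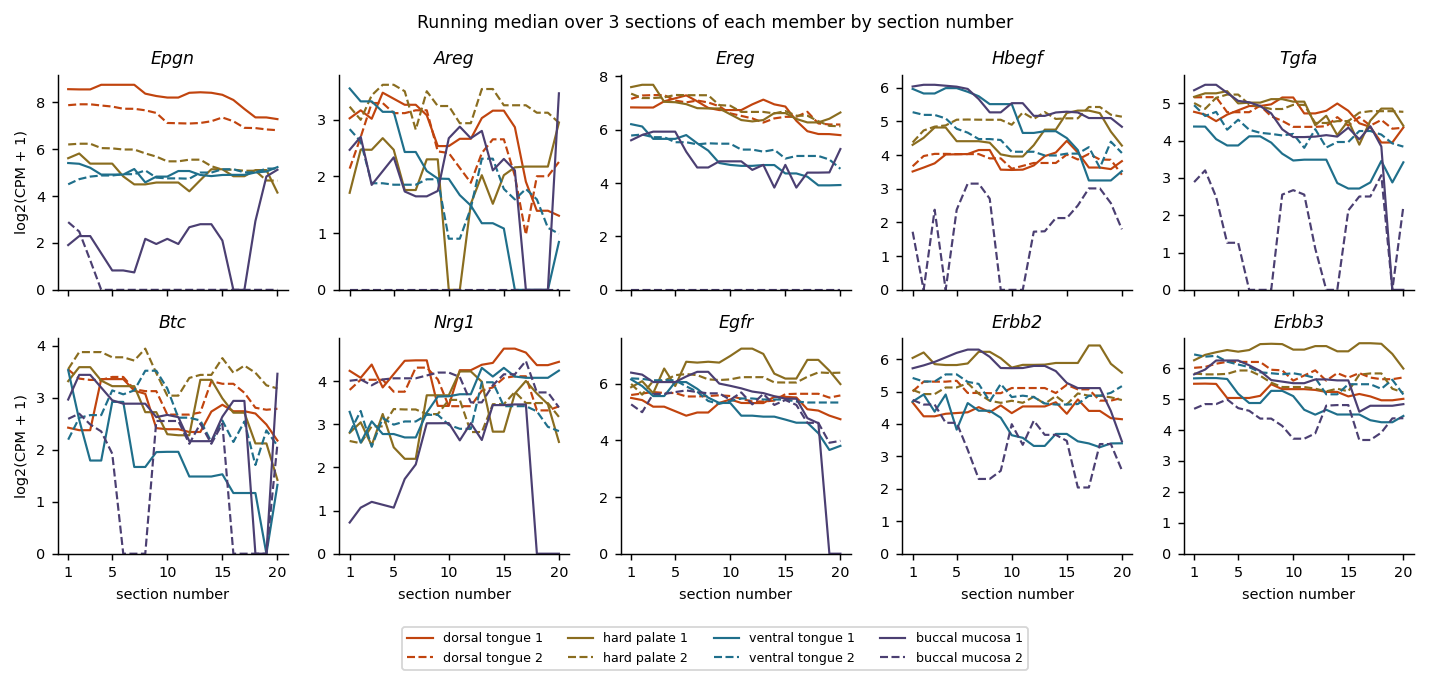
Running median over 3 sections of log2(CPM + 1) against section number for each member, one line per sample (solid for replicate 1, dashed for replicate 2, coloured by site; sections under 30000 UMIs are left out). Ereg falls with section number in 7 samples, and the Epgn lines of dorsal tongue stay above those of all other samples throughout.

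**Figure D4:**
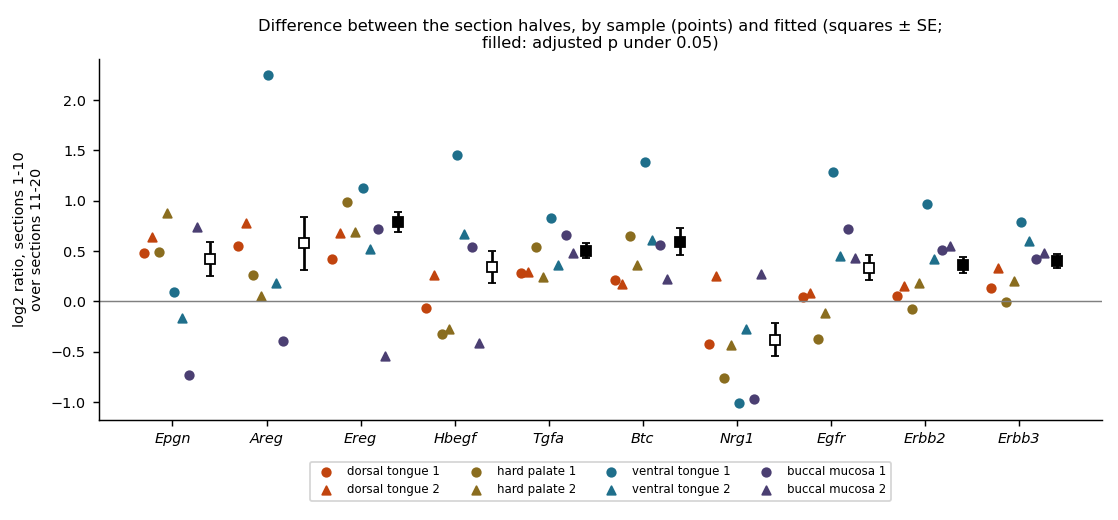
Log2 ratio of sections 1 to 10 over sections 11 to 20 by sample (circles for replicate 1, triangles for replicate 2, coloured by site) and the fitted difference (squares, with bars of 1 SE; filled where the adjusted p is under 0.05). Tgfa and Btc are above 0 in 8 of 8 samples, and Nrg1 is above 0 in 2 of 8.

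Whether the difference between earlier and later sections depended on the site was tested as an interaction, and 0 of 10 members passed, against 0.359% of all genes (edgeR). Unadjusted p-values were under 0.05 for 3 members, Epgn, Hbegf and Egfr, and DESeq2 called 1 member, Epgn (adjusted p = 0.015). The shares of all genes that met the same thresholds are not given, so these counts are no result about the members. The adjusted p of Epgn was 0.11, against 0.044 without buccal mucosa replicate 1 and 0.024 without replicate 2, where 3.55% of genes passed. Epgn was at 371 and 210 CPM in sections 1 to 10 of dorsal tongue, against 266 and 135 CPM in sections 11 to 20. Hard palate had 40.3 and 64.1 CPM in the earlier sections, against 28.6 and 34.7 CPM. Ventral tongue had 31.9 and 28.5 CPM, against 29.9 and 32.0 CPM, and buccal mucosa 2.44 and 1.46 CPM, against 4.35 and 0.679 CPM. The earlier sections were thus higher in all dorsal tongue and hard palate samples, and in 1 of 2 samples at the other sites. In buccal mucosa the direction rests on 26 and 5 UMIs in sections 1 to 10, against 27 and 3 UMIs in sections 11 to 20. Hbegf was higher in the earlier sections of ventral tongue, at 52.4 and 26.4 CPM, against 18.8 and 16.4 CPM. In hard palate it was lower there, at 21.6 and 31.0 CPM, against 27.2 and 37.6 CPM.

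Sections were also split within each sample by the score of the 20 keratinocyte genes, smoothed by a running median over 3 sections. A single section can thus differ from its region, and epithelium-rich and epithelium-poor are relative to the sample. In hard palate replicate 1, section 2 scored 10.06 and counted as poor, while section 3 scored 9.60 and counted as rich. Dorsal tongue replicate 1 had 18 rich and 2 poor sections. The rich sections of buccal mucosa replicate 2 scored 4.89 to 6.41, under the 7.95 of a poor section of ventral tongue replicate 1. On this split, 7 members were higher in epithelium-rich than in epithelium-poor sections and none was lower, where 15.8% of all genes were higher and 21.2% lower. The regions were drawn from expression in the same sections, so the p-values are no independent test. Ereg differed by 0.74 ± 0.11 on the log2 scale, Tgfa by 0.48 ± 0.10, Btc by 0.48 ± 0.14 and Hbegf by 0.41 ± 0.15. The receptors Erbb3, Egfr and Erbb2 differed by 0.44 ± 0.07, 0.43 ± 0.12 and 0.41 ± 0.10. Epgn, at 0.42 ± 0.21, Areg, at 0.61 ± 0.32, and Nrg1, at -0.34 ± 0.16, did not pass (adjusted p = 0.13, 0.15 and 0.12). With regions drawn by Krt5 and Krt14 alone, 4 members were higher, a count given without the share over all genes.

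Across the 20 sections of a sample, the median correlations with the marker lists differed between members, but the samples often disagreed. These Spearman correlations describe sections of the same block, which share tissue and depth, and carry no test. Ereg followed the 12 differentiated keratinocyte markers, such as Krt13 and Krtdap, with a median rho of 0.61 over the 8 samples (-0.10 to 0.82, above 0 in 7). It followed the 8 basal markers, such as Krt5 and Krt14, at 0.25 (-0.84 to 0.82) and ran against the adipocyte markers at -0.73. Egfr followed the basal markers at 0.52 (-0.01 to 0.89) and the differentiated markers at 0.15 (-0.66 to 0.84). It ran against skeletal muscle markers at -0.55. Erbb3 followed the basal and differentiated markers at 0.56 (-0.40 to 0.86) and 0.48 (-0.60 to 0.89). It ran against skeletal muscle markers at -0.51, adipocyte markers at -0.49, and Schwann cell and nerve markers at -0.45. Erbb2 followed the basal markers at 0.35 (-0.51 to 0.71), and Tgfa the differentiated markers at 0.41 (-0.38 to 0.74). In ventral tongue replicate 1 Ereg was at 0.82 with basal and 0.81 with differentiated markers. Egfr was at 0.89 and 0.84 there.

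Nrg1 was the member whose sections ran against the differentiated keratinocyte markers, with a median rho of -0.38 (below 0 in 7 of 8 samples). It followed the 8 endothelial markers at 0.41 in 8 of 8 samples (0.03 to 0.77). Among sections with at least 30000 UMIs this rho was above 0 in 7 of 8 samples (-0.13 to 0.75). Nrg1 was at 0.35 with adipocyte, 0.30 with Schwann cell and nerve, 0.27 with fibroblast and 0.24 with skeletal muscle markers. Epgn had no median above 0.21 with any list, and its rho with section number ranged between -0.97 and 0.59. Hbegf had no median above 0.18, though with basal markers it ranged between -0.17 and 0.89, with 0.89 and 0.80 in ventral tongue. Areg and Btc had few UMIs per section, so their weak median correlations are no finding. With differentiated markers Areg ranged between -0.53 and 0.94, the highest in ventral tongue replicate 1, where it had 48 UMIs in all.

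**Figure D5:**
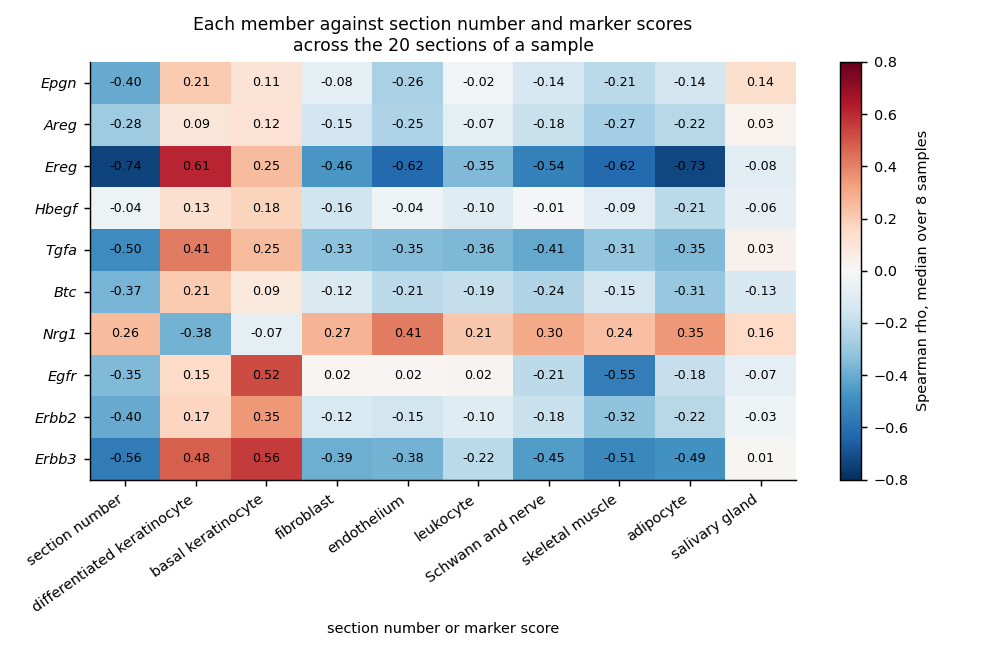
Median over the samples of the within-sample Spearman rho across 20 sections between each member (rows) and section number or a marker score (columns); Areg has 7 samples, the others 8. Ereg is at 0.61 with differentiated keratinocyte markers and -0.74 with section number, Egfr and Erbb3 are at 0.52 and 0.56 with basal keratinocyte markers, and Nrg1 is at 0.41 with endothelial markers.

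Among pairs of members, Ereg and Erbb3 had the highest median rho across sections, at 0.62 (above 0 in 7 of 8 samples), followed by Egfr and Erbb3 at 0.53 and Tgfa and Erbb3 at 0.52. Hbegf and Egfr were at 0.42 and above 0 in 8 of 8 samples. Epgn and its neighbour Ereg were at 0.38, with a range of -0.49 to 0.89. Ereg and Nrg1 had the lowest median, at -0.32.

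Of 7426 genes with a mean of at least 20 CPM and a UMI in each sample, the 3 most like Ereg across sections were Alox12b, a lipoxygenase of the epidermal barrier, Kctd11 and Wfdc5, with median rho of 0.82, 0.81 and 0.81. For Egfr they were Nectin1, a cell adhesion protein, Zbtb7c and Arhgap32, at 0.77, 0.74 and 0.74. For Erbb3 they were Mapk13, a p38 kinase, Vsig10l and Atp6v0a2, at 0.69, 0.69 and 0.68. Itprid2 and Kctd11 were among the genes most like Epgn, at 0.64 and 0.60. Tgfa was most like Slc15a1, Sh3pxd2a and Gas7, at 0.65, 0.65 and 0.63, and Hbegf like Serpinb1a, Sgpl1 and Uba6, at 0.64, 0.62 and 0.62. For Erbb2 the genes were Coro1b, Rhov and Fasn, at 0.63, 0.62 and 0.61. Nrg1 was most like Agtpbp1, Cdh13 and Kat2b, at 0.60, 0.57 and 0.55, and Btc like Elmod1, Pim1 and Zfp750, at 0.52, 0.51 and 0.51. Picked as the highest of 7426, these values are high by selection and carry no test. Samples often disagreed, with -0.48 to 0.86 for Epgn and Itprid2, -0.25 to 0.74 for Nrg1 and Agtpbp1, and -0.30 to 0.82 for Erbb3 and Vsig10l. Others stayed above 0, such as Ereg and Alox12b (0.29 to 0.91) and Egfr and Nectin1 (0.21 to 0.92). Btc had few UMIs per section.

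Of 53 other genes of the ErbB pathway, 2 passed the test of any difference between sites, against 4.77% of all genes, and 7 did without buccal mucosa replicate 2, against 12.3%. Both counts are close to the share over all genes. Erbb4, the receptor not among the members, had 3.25 and 3.84 CPM in dorsal tongue, 1.69 and 1.06 CPM in hard palate, 7.48 and 16.1 CPM in ventral tongue, and 5.21 and 3.58 CPM in buccal mucosa (adjusted p = 0.043). Ventral tongue was the highest and hard palate the lowest, with no overlap of either with another site. Etv4, an ETS transcription factor, had 8.20 and 8.27 CPM in dorsal tongue, 2.09 and 2.39 CPM in hard palate, 2.72 and 2.34 CPM in ventral tongue, and 2.37 and 1.79 CPM in buccal mucosa (adjusted p = 0.024). Dorsal tongue was above all other samples.

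Between sections 1 to 10 and 11 to 20, 9 of 52 tested pathway genes were higher in sections 1 to 10 and 7 were lower, with a median log2 difference of 0.05, against 13.8% and 18.5% of all genes. All 6 of the 19 signal relay genes that passed were higher, among them Mapk3 (the kinase ERK1) by 0.36, Hras by 0.28 and Map2k2 (the kinase MEK2) by 0.24, while the median of the 19 was -0.0071. Of 10 early response genes and targets, Junb and Ier3 were higher, by 0.34 and 0.30, and Egr1 and Etv5 were lower, at -0.33 and -0.45. Egr1 and Etv5 are named after their values were seen, to complete that count. Timp3, an inhibitor of the protease that sheds several of these ligands, was lower, at -0.41 ± 0.09 (adjusted p = 0.0041).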

How the data were processed

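The libraries were CEL-seq2 (3′ ends counted with UMIs) from the RNA of each section, per the labels' protocols. The submitters' processing notes name Trim Galore 0.6.10, STAR 2.7.9a and GRCm38. No source used here names the counting program. The authors deposited 3 tables per sample, as the values show: UMI counts, read counts, and estimated counts that correct for UMI collisions. The UMI counts were used, and the other tables (estimated counts rounded to whole numbers) were alternatives. UMI counts were summed over all sections of a sample, over sections 1 to 10 and 11 to 20, or over epithelium-rich and epithelium-poor sections (Otsu's threshold on the running median over 3 sections of the mean log2 CPM of the 20 keratinocyte genes). Genes passed filterByExpr and were TMM-scaled and tested with edgeR 4.0.16 in R 4.3.3, with the threshold at an adjusted p of 0.05 (Benjamini-Hochberg over all genes). All 8 samples shared 1 estimate of the spread in site tests, and the SE was derived from the F statistic. All 413 entries that named several genes stayed in the library sizes. Replicates were numbered only, and section sums were compared within a sample. The tests were tested on simulated counts. The members and lists were chosen with earlier results of these data known. All members are named, as are up to 6 pathway genes per comparison that passed, by mean CPM, and the 3 genes most alike across sections, of which 1 for Epgn is not reported here. DESeq2 1.42.0 was an alternative.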

Additional observations from a re-analysis of the deposited data

Results flagged for a closer look

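Over the 8 samples, 3 values lay farther from the others than Dixon's criterion allows, which chance gives for about 1 in 20 sets of values. Ereg differed between sections 1 to 10 and 11 to 20 by -0.54 on the log2 scale in buccal mucosa replicate 2, where it had a single UMI, against 0.42 to 1.13 in the other samples. Btc differed by 1.38 between the earlier and later sections in ventral tongue replicate 1, and by 1.38 between its epithelium-rich and epithelium-poor sections, which rest on 45 UMIs in all.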

How the results depend on the processing

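The 5 members higher in sections 1 to 10 kept their call under every alternative run, with Ereg at 0.71 to 1.00, Tgfa at 0.50 to 0.64, Btc at 0.57 to 0.71, Erbb2 at 0.38 to 0.50 and Erbb3 at 0.40 to 0.52 outside the fits without a sample. Leaving out a sample gave 0 to 5 members for any site difference, 0 to 2 for dorsal over ventral tongue, and 0 to 5 for dorsal tongue, hard palate or ventral tongue over buccal mucosa. It gave 0 to 1 for dorsal tongue over hard palate, hard palate over ventral tongue, members lower in sections 1 to 10, the interaction with site, and members lower in epithelium-rich sections. With no filter on low counts, 2 members passed for any site difference, for dorsal tongue over ventral tongue, for dorsal tongue over buccal mucosa and for hard palate over buccal mucosa, 1 for hard palate over ventral tongue and for ventral tongue over buccal mucosa, 9 as higher and 1 as lower in sections 1 to 10, and 3 for the interaction. DESeq2 gave 1 for dorsal over ventral tongue, for ventral tongue over buccal mucosa and for the interaction. Read counts, epithelium-poor sections, the keratinocyte genes as library size and the fit without ventral tongue each gave 0 for dorsal tongue over hard palate. Epithelium-poor sections and the fits without hard palate or ventral tongue gave 0 for dorsal tongue over buccal mucosa. Without dorsal tongue or hard palate 0 members passed for any difference, and without buccal mucosa 2 did, with 2 for dorsal over ventral tongue and 1 for hard palate over ventral tongue. Regions by Krt5 and Krt14 gave 4 members higher. The fits of site differences without a site and with the keratinocyte genes as library size were chosen after seeing the data. The counts of members above are given without the share of all genes that passed in the same fits. They describe the processing and are no result about the members. The sign turned in values that never passed: Ereg in dorsal tongue over hard palate was -0.18 in epithelium-poor sections, and Epgn in hard palate over ventral tongue was -0.018 to 0.42 in fits without a sample (lowest without hard palate replicate 2), -0.18 in epithelium-poor sections and -0.23 with the keratinocyte genes as library size. The cause was not tested.

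With the replicate block, 0 members passed for dorsal tongue over buccal mucosa and over hard palate, 362 genes passed for any site difference against 887 without it, and Epgn kept its call for any difference (adjusted p = 0.031). The labels share only numbers between sites: deviations of same-numbered samples correlated at -0.27 to 0.53 over the 6 pairs of sites. Few UMIs per section limit Areg and Btc.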
